A study of Mus musculus with 15 samples.

Results

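Genes of MHC class I and class II antigen presentation were followed in sorted tumour cells of a mouse model of basal cell carcinoma, the common skin cancer driven by Hedgehog signalling. The members were chosen by symbol: every gene whose symbol starts with H2-, the prefix of the mouse MHC, and 18 genes of peptide production, peptide loading, regulation and class II assembly. The files held 59 of these genes among 36528 in all. H2-Q7 and H2-Q9 had identical counts in all 15 libraries and were counted once, which left 58, and 46 of the 58 passed the filter on low counts and were tested. The other 12, among them H2-Eb2, H2-Oa, H2-Ob and 9 H2-M genes, stayed below 1 CPM (read counts scaled to library size with TMM factors) in every library.

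Class I molecules show peptides made inside the cell to CD8 T cells. The proteasome and its interferon-inducible subunits cut proteins, the TAP1-TAP2 transporter moves the peptides into the endoplasmic reticulum, and tapasin (Tapbp) with calreticulin (Calr) and ERp57 (Pdia3) helps load them onto a heavy chain paired with β2-microglobulin (B2m). NLRC5 is the transactivator of class I genes and CIITA that of class II genes. Class II molecules show peptides from endosomes to CD4 T cells and are made mainly by dendritic cells, macrophages and B cells, and by epithelia under interferon-γ.

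All mice carried K14Cre-ER; Ptch1fl/fl; p53fl/fl;Lgr5GFP, that is, an inducible Cre driven by the keratin 14 promoter of basal keratinocytes, conditional alleles of the Hedgehog receptor Ptch1 and of p53, and a GFP reporter of Lgr5. The 15 libraries of polyA RNA comprise 4 with the label control, 8 taken after 6 days and 3 taken after 14 days on vismodegib, a drug that blocks SMO, the activator of the Hedgehog pathway. The series' design text calls the control mice untreated. Titles of control samples carry the letters MCT, which the labels do not explain. The sources used here do not give age, strain background, the sort gate or whether each library is a separate animal, and the p-values therefore measure the spread between libraries. In such bulk RNA, fewer cells of a type and less RNA per cell cannot be told apart.

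Total counts ran from 27336935 to 256569828 per library, so that 3 counts in a library equal at most 0.105 CPM. Identifiers in the sample titles form 3 blocks of numbers, called ranges A, B and C here and not described as batches by the submitters. Range A holds controls 1, 2 and 3 with 5 libraries at 6 days, range B holds control 4 with 3 libraries at 6 days, and range C holds only the libraries at 14 days, so that range C and 14 days cannot be told apart. Range B did not overlap the other 11 libraries in 23% of all genes tested and in 4.35% of the members, which are H2-Q4 and Tapbpl. Keratinocyte markers summed to at least 16256 CPM in every library. T and NK markers stayed at or below 14.6 CPM in sum and B cell markers at or below 0.826 CPM.

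At 14 days of vismodegib, 3 of 8 genes of class I peptide transport and loading and 3 class I heavy chain genes were higher than in controls. Tapbp (2.50-fold), Tap1 and Tap2 (both 1.81-fold), and H2-M3, H2-Q6 and H2-Q8 (2.49-fold to 3.05-fold), rose, and Cd1d1, which presents lipids, fell 2.40-fold. These were 7 of 46 members by edgeR's quasi-likelihood test at a Benjamini-Hochberg adjusted p under 0.05 over all genes, 6 of them higher, where 6.6% of all 18751 genes tested were called and 3.25% were called higher. The median log2 fold change of the members was 0.74, against -0.02 over all genes tested, and 37 of 46 members lay above 0. By role, 3 of 8 loading genes and 4 of 23 class I and class I-like genes were called, and 0 of 5 immunoproteasome and 0 of 8 class II genes. Groups did not overlap in 12 of 46 members, against 23.4% of all genes, and 11 of these members were higher at 14 days, against 11.7% of all genes. All 7 calls were lost when the control and 14-day libraries were fitted alone (0 of 46, with 1.96% of all genes called; lowest adjusted p = 0.0561, Tapbp) and when 14-day replicate 1 was left out (0 of 46, with 1.94% of all genes called). Without control 1 there were 17 calls (7.26% of all genes). There were 3 without control 2 (4.03%), without 14-day replicate 2 (2.92%) and without 14-day replicate 3 (2.41%), and 1 without control 3 (3.21%). Keratinocyte markers summed to 31745 to 45614 CPM at 14 days, 28144 to 43339 CPM at 6 days and 16256 to 26561 CPM in controls. Myeloid markers summed to 45.7 to 68.3 CPM, 5.75 to 14.7 CPM and 8.2 to 22.7 CPM in the same order. The part of either cell type in these results was not tested.

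**Figure D1:**
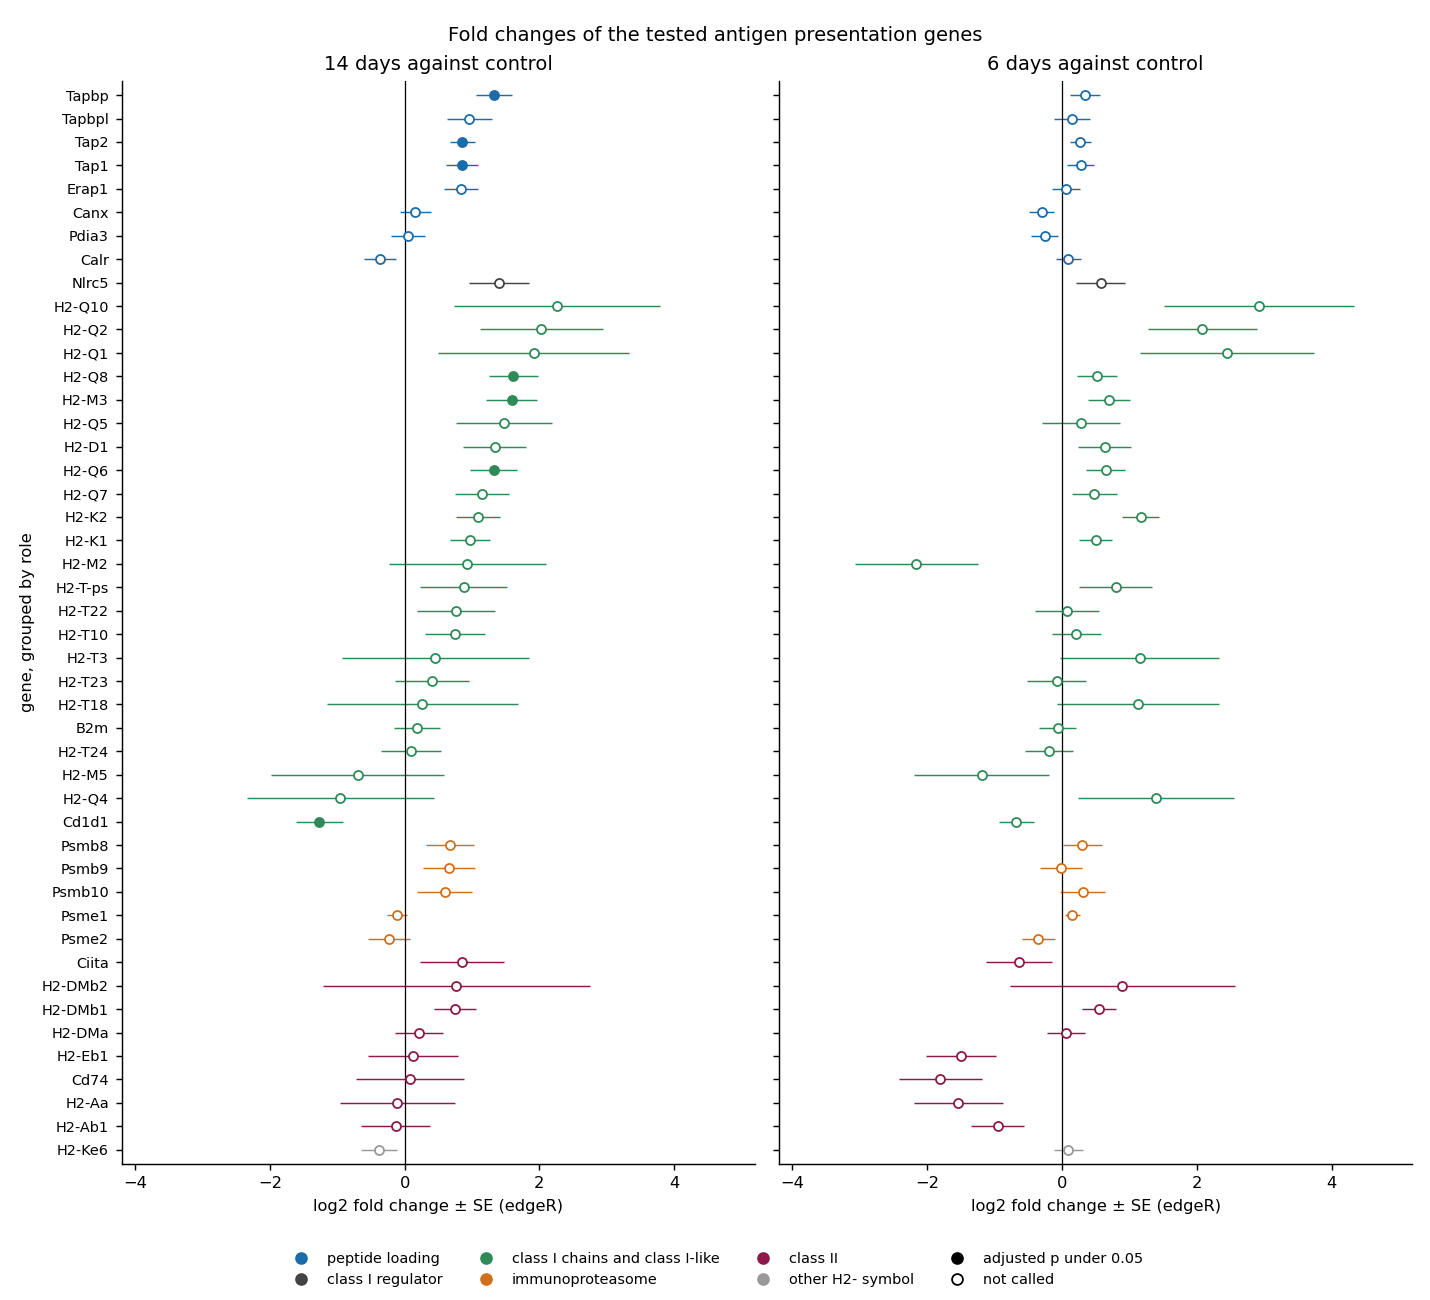
Log2 fold change with its standard error for the 46 tested members at 14 days against control (left) and 6 days against control (right), grouped by role, filled where the adjusted p is under 0.05. At 14 days 7 genes are filled, 6 of them to the right of 0, and at 6 days none is.

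Tapasin had the lowest adjusted p of all members at 14 days against control. Tapbp (chr17:33919478-33929290, GRCm38) had 249, 157, 139 and 120 CPM in controls 1 to 4, a lowest, median and highest value of 148, 209 and 274 CPM at 6 days, and 491, 368 and 389 CPM at 14 days. All 3 libraries at 14 days lay above every other library, while the controls and the 6-day libraries overlapped. The difference between 14 days and control was 1.32 ± 0.27 on the log2 scale (SE; adjusted p = 0.0112, edgeR). The call was lost only without 14-day replicate 1 among the 15 libraries left out in turn (highest adjusted p = 0.0561). Tapbp was also the only member called between 14 and 6 days, at 0.98 ± 0.23 log2 (SE; adjusted p = 0.0327, edgeR), where 3.89% of all genes were called and 2.14% were called higher. That call was lost without 14-day replicate 1 or 3 or without 6-day replicate 2, 5, 6 or 7 (highest adjusted p = 0.283).

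Both subunits of the peptide transporter rose at 14 days against control. Tap1 (chr17:34187556-34197225) had 248, 228, 152 and 163 CPM in controls, 175, 238 and 314 CPM as lowest, median and highest at 6 days, and 454, 314 and 304 CPM at 14 days. Tap2 (chr17:34204479-34216321) had 168, 130, 117 and 113 CPM in controls, 127, 155 and 196 CPM at 6 days and 301, 214 and 203 CPM at 14 days. Both groups of values at 14 days lay above all controls, and 14-day replicate 1 was the highest library for both genes. The log2 differences at 14 days against control were 0.85 ± 0.24 for Tap1 (SE; adjusted p = 0.0459, edgeR) and 0.86 ± 0.19 for Tap2 (SE; adjusted p = 0.0166, edgeR). Tap2 lost its call without 14-day replicate 1 or control 3 (highest adjusted p = 0.102). Tap1 kept its call in 4 of 15 fits, those without control 1 and without 6-day replicate 1, 2 or 4 (highest adjusted p = 0.224 in the other fits).

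The other loading genes did not pass the test at 14 days. Tapbpl, the tapasin-related editor TAPBPR, had 69.2, 58.3 and 69.6 CPM at 14 days, against 51.3, 36.2, 30.6 and 17.2 CPM in controls (adjusted p = 0.0984, edgeR). Erap1, which trims peptides in the endoplasmic reticulum, had 104, 62.8 and 68.1 CPM at 14 days, against 62.9, 42.4, 36.5 and 34 CPM in controls (adjusted p = 0.0621, edgeR). For Tapbpl the 2 groups did not overlap, and for Erap1 they met at 14-day replicate 2 and control 1. The general chaperones and folding enzymes of the same complex lay near 0 or below it, with log2 differences of 0.16 ± 0.23 for calnexin (Canx), 0.05 ± 0.25 for Pdia3 and -0.37 ± 0.24 for Calr (SE; lowest adjusted p = 0.374, edgeR).

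**Figure D2:**
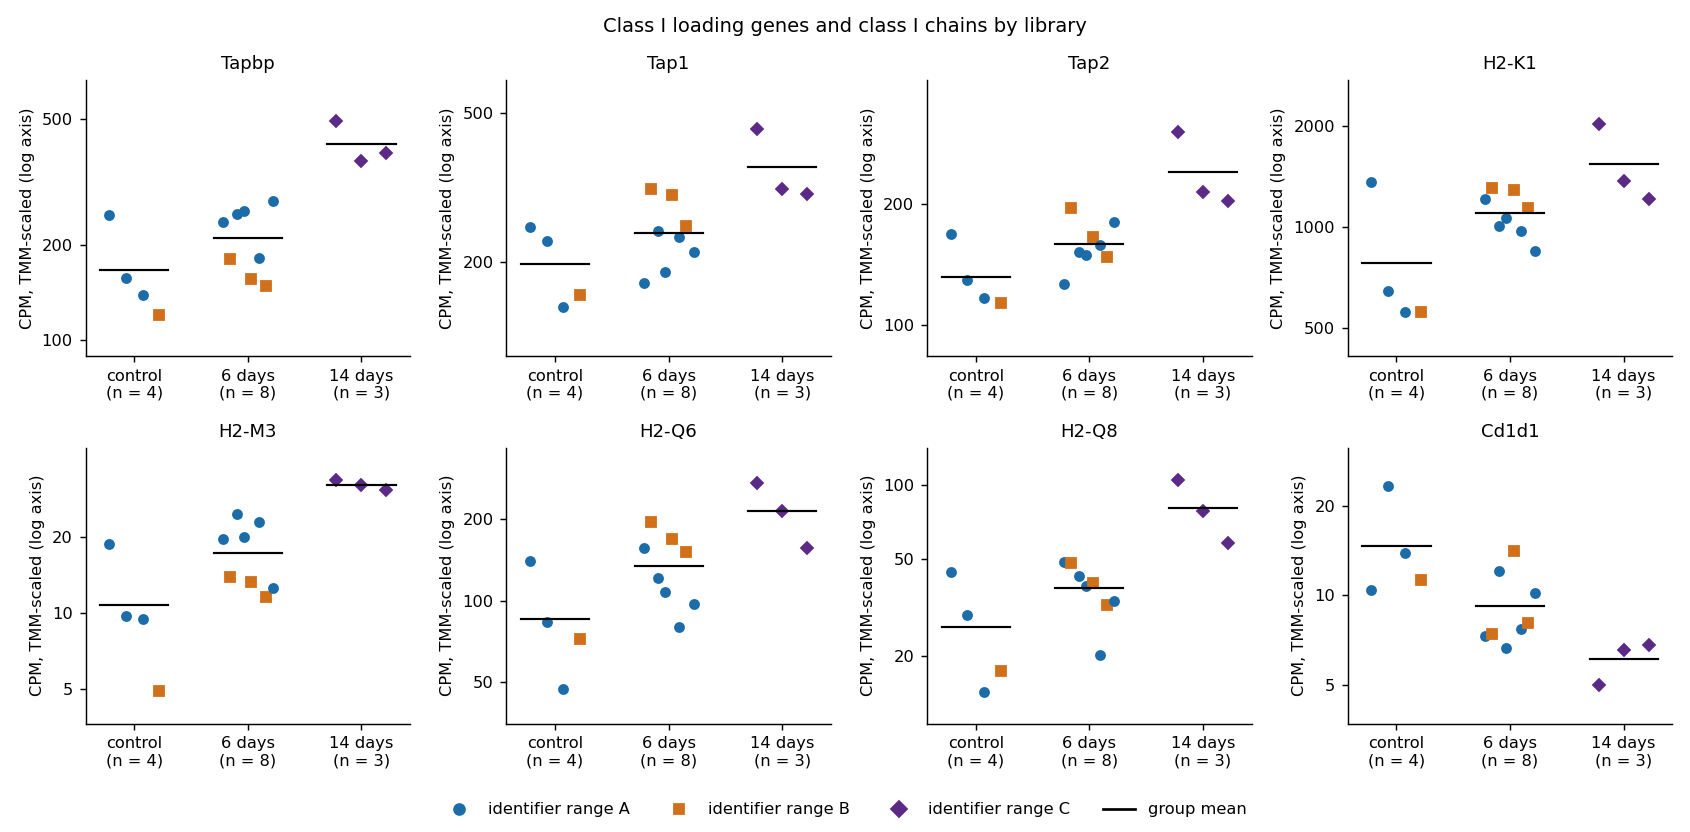
TMM-scaled CPM of each library on log axes for Tapbp, Tap1, Tap2, H2-K1, H2-M3, H2-Q6, H2-Q8 and Cd1d1, with the shape and colour of a point giving its identifier range and the line the group mean. For Tapbp, H2-M3 and H2-Q8 the 14-day libraries lie above all others, and for Cd1d1 they lie below all controls.

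The classical heavy chains and B2m were the most abundant members. Per gene length, in deposited RPKM, H2-D1 averaged 1376 ± 281 at 14 days and 558 ± 305 in controls, B2m 848 ± 134 at 14 days and 764 ± 538 in controls, and H2-K1 587 ± 169 at 14 days and 306 ± 154 in controls (SD, n = 3 and 4). H2-D1 (chr17:35263094-35267497) had 3369, 2252 and 2989 CPM at 14 days, against 2034, 967, 903 and 647 CPM in controls. H2-K1 (chr17:33996012-34000619) had 2030, 1371 and 1209 CPM at 14 days, against 1361, 646, 560 and 559 CPM in controls. The groups did not overlap for H2-D1, and for H2-K1 only control 1 reached the 14-day values. Neither gene passed the test: the log2 differences were 1.33 ± 0.47 for H2-D1 (SE; adjusted p = 0.105, edgeR) and 0.97 ± 0.30 for H2-K1 (SE; adjusted p = 0.0629, edgeR). Both were called when range B was a covariate (adjusted p = 0.0154 and 0.0352, edgeR) and when control 1 was left out. B2m, the invariant light chain, had 1027, 784 and 811 CPM at 14 days, against 1569, 524, 475 and 505 CPM in controls (log2 difference 0.19 ± 0.34, SE; adjusted p = 0.793, edgeR). Control 1 was the highest of all 15 libraries for B2m and the highest control for H2-K1 and H2-D1. Without control 1, B2m was called higher as well (adjusted p = 0.0236, edgeR), where 7.26% of all genes were called. At 6 days H2-D1 had 763 to 946 CPM in the 3 range B libraries and 1947 to 2790 CPM in the 5 of range A. Control 4, of range B, was the lowest of all libraries for H2-D1.

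Among the nonclassical heavy chains, H2-M3, which binds N-formylated peptides of bacteria and mitochondria, was higher at 14 days. H2-M3 (chr17:37270234-37274485) had 33.7, 32.3 and 30.9 CPM at 14 days, against 18.9, 9.71, 9.47 and 4.91 CPM in controls. At 6 days its lowest, median and highest values were 11.6, 16.8 and 24.8 CPM, so that the 14-day libraries lay above all others. The log2 difference between 14 days and control was 1.59 ± 0.38 (SE; adjusted p = 0.0216, edgeR). The call was lost without control 2 or 3 and without each of the 14-day libraries (highest adjusted p = 0.0771).

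The Qa-2 region genes H2-Q6 and H2-Q8 rose as well. H2-Q6 (chr17:35424850-35430055) had 272, 214 and 157 CPM at 14 days, against 141, 83.1, 47.3 and 72.4 CPM in controls (log2 difference 1.32 ± 0.35, SE; adjusted p = 0.0363, edgeR). H2-Q8 had 105, 78.4 and 58.2 CPM at 14 days, against 44.2, 29.6, 14.3 and 17.4 CPM in controls (log2 difference 1.61 ± 0.36, SE; adjusted p = 0.0169, edgeR). Neither gene overlapped between 14 days and control, and in both the highest library was 14-day replicate 1. H2-Q6 lost its call without control 2, 3 or 4 or any 14-day library (highest adjusted p = 0.163), and H2-Q8 without control 3 or 14-day replicate 1 (highest adjusted p = 0.0884). H2-Q7, named after its values were seen, had 147, 99.4 and 65.8 CPM at 14 days, against 94.9, 32.7, 32.8 and 27.2 CPM in controls (adjusted p = 0.103, edgeR). These genes are near-identical copies, and reads may be split unevenly between them or counted under more than one, so the value of each copy is uncertain.

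Promoter windows of classical and Qa-2 region heavy chains are shown because H2-Q6 rose while its neighbour H2-Q4 was highest in the range B libraries. Their letters can be set beside those of H2-K1, H2-D1 and H2-Q7. They were read from RefSeq promoter sequences of GRCm38.p6, which gave 48 promoters for 44 member genes. Each window starts 10 bases before its first match to the κB consensus. Capitals mark matches to that consensus and to the interferon response core GAANNGAAA (both strands, N any base), which do not overlap each other here.

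H2-Q6: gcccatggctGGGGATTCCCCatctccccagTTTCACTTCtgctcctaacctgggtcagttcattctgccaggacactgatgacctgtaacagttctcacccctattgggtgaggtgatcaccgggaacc
H2-Q7: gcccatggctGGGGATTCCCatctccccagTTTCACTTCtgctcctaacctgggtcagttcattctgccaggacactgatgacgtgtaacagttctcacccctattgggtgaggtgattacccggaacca
H2-Q4: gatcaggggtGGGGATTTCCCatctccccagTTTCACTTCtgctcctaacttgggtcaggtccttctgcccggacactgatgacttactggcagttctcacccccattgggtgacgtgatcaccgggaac
H2-K1: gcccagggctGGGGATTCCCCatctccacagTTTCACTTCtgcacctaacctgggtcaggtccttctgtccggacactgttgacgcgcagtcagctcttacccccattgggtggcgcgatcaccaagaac
H2-D1: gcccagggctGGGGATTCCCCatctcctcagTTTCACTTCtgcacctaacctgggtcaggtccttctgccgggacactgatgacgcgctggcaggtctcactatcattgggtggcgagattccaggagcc

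The windows lie at chr17:35424667-35424796 (H2-Q6, plus strand), chr17:35439012-35439141 (H2-Q7, plus), chr17:35379433-35379562 (H2-Q4, plus), chr17:34000339-34000468 (H2-K1, minus) and chr17:35262913-35263042 (H2-D1, plus). The κB consensus was found in the promoters of 11 of 44 member genes and in 8.46% of all 32851 promoters. The 11 were the 5 shown with H2-M3, H2-M2, H2-T22, H2-Aa, B2m and Calr. The interferon response core was found in 9 of 44 member genes, the 5 shown with H2-Q10, H2-M3, H2-M2 and Psme1, and in 7.52% of all promoters. H2-Q4, with both motifs in the same order and spacing as H2-Q6 in these windows, had 8.6, 7.3 and 31.5 CPM at 14 days, against 4.96, 3.68, 2.59 and 111 CPM in controls.

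The loading genes are shown for contrast, with the CCAAT box (either strand) in capitals. The Tapbp sequence covers the 250 bases before its start site and the Tap1 sequence the 225 bases before its own. Neither the κB consensus nor the interferon response core was found in the RefSeq promoter of either gene. No promoter of Tap2 was used here. The Tap1 sequence fills the gap between the start sites of Tap1 and Psmb9, which lie 226 bases apart on opposite strands.

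Tapbp: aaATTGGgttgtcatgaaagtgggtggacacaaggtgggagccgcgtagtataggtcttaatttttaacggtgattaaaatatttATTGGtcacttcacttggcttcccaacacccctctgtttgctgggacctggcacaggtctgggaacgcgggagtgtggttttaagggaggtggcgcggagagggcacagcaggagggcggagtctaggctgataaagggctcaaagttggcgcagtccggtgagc
Tap1: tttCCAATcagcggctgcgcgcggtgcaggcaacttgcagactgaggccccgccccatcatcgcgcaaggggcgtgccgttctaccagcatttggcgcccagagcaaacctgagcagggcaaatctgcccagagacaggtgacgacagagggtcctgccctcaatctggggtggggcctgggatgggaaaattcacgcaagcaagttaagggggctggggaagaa

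These lie at chr17:33919228-33919477 (Tapbp, plus) and chr17:34187331-34187555 (Tap1, plus). CCAAT was found in 36 of 44 member genes and in 37.4% of all promoters.

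Cd1d1, a class I-like molecule that presents lipids to NKT cells, was the only member called lower at 14 days against control by edgeR. Limma-voom with sample weights also called H2-Ke6 lower, with 11.1% of all genes called lower. Cd1d1 (chr3:86995834-87012358) had 4.99, 6.55 and 6.82 CPM at 14 days, against 10.5, 23.3, 13.9 and 11.2 CPM in controls. The groups did not overlap, and the 6-day libraries, with a median of 7.89 CPM between 6.63 and 14.1 CPM, overlapped both. The log2 difference between 14 days and control was -1.27 ± 0.35 (SE; adjusted p = 0.0417, edgeR), and 5 of 15 fits with a library left out kept the call. These were the fits without control 1 or 4 and without 6-day replicate 5, 6 or 7 (highest adjusted p = 0.18 in the other fits).

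The regulators of class I were measured beside their targets. Nlrc5 had 233, 104 and 95 CPM at 14 days, against 94.7, 36.6, 54.3 and 33.3 CPM in controls. The groups were separated by less than 1 CPM, and 14-day replicate 1 stood well above all other libraries (log2 difference 1.39 ± 0.44, SE; adjusted p = 0.0722, edgeR). Among genes of interferon signalling and class I regulation, Stat2, Irf1 and Tyk2 were called higher at 14 days against control. Over the 7 neighbouring pathway lists together 5 of 59 genes were called (8.47%, against 6.6% of all genes).

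Irf1, a transcription factor induced by interferon, had 118, 85.1 and 96.5 CPM at 14 days, against 71.3, 48.3, 30.4 and 27.2 CPM in controls, with no overlap (log2 difference 1.17 ± 0.29, SE; adjusted p = 0.0252, edgeR). Among kinases of interferon receptors, Tyk2 was higher by 0.80 ± 0.18 log2 at 14 days against control (SE; adjusted p = 0.0168, edgeR). Jak1 was called in another comparison, higher by 0.70 ± 0.17 log2 at 14 against 6 days (SE; adjusted p = 0.0397, edgeR). In that comparison 3 of the 59 genes of the 7 lists were called (5.08%, against 3.89% of all genes). Stat2 was higher by 0.83 ± 0.22 log2 at 14 days against control (SE; adjusted p = 0.0394, edgeR). Leaving out 14-day replicate 1 ended each of these calls, at highest adjusted p of 0.118 for Irf1, 0.0753 for Tyk2, 0.339 for Jak1 and 0.14 for Stat2 over all libraries left out. Other libraries whose absence ended a call were controls 2 and 3 and 14-day replicate 3 (Irf1, Stat2 and Jak1), control 4 (Stat2), 14-day replicate 2 (Tyk2 and Stat2) and 6-day replicates 2, 5, 6 and 7 (Jak1).

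Outside the members, Hfe, a class I-like protein of iron uptake, was also called. It had 22.2, 18.3 and 16.9 CPM at 14 days, against 7.94, 2.35, 3.25 and 2.64 CPM in controls, with no overlap (log2 difference 2.24 ± 0.48, SE; adjusted p = 0.0145, edgeR; 0.0585 without 14-day replicate 1).

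The immunoproteasome replaces 3 catalytic subunits of the standard proteasome with interferon-inducible ones. By edgeR over all libraries 0 of 5 genes, its 3 subunits and the 2 PA28 activator subunits, were called in each of the 3 comparisons. Of these, 0 had an unadjusted p under 0.05, where 12.7% to 23.3% of all genes did, depending on the comparison. DESeq2 called 0 of the 5 as well. Limma-voom with sample weights called Psmb8, Psmb9 and Psmb10 higher at 14 days against control, where it called 22.4% of all genes. It called Psmb9 higher and Psme1 lower at 14 against 6 days, where it called 25% of all genes. Psmb9 was also called higher at 14 against 6 days by edgeR on those libraries alone (4.08% of all genes called). Without control 1, edgeR called Psmb8, Psmb9 and Psmb10 higher at 14 days against control, where 7.26% of all genes were called. Psmb8 had 198, 118 and 162 CPM at 14 days, against 185, 78.3, 65.2 and 71.3 CPM in controls (log2 difference 0.67 ± 0.35, SE; adjusted p = 0.266, edgeR). Psmb9 had 73.4, 49 and 61.9 CPM at 14 days, against 73.9, 35, 33.9 and 12.4 CPM in controls (log2 difference 0.66 ± 0.39, SE; adjusted p = 0.323, edgeR). Control 1 alone reached the 14-day values in both. Psmb10 had 26.6, 25.4 and 25.6 CPM at 14 days, against 37, 11.1, 12.6 and 7.91 CPM in controls (log2 difference 0.60 ± 0.41, SE; adjusted p = 0.403, edgeR). The 14-day values of Psmb10 were close together, between control 1 and the other controls. Psme1 and Psme2 lay at -0.11 ± 0.15 and -0.23 ± 0.32 log2 (SE; adjusted p = 0.701 and 0.713, edgeR).

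The balance between inducible and standard subunits was set out as ratios of deposited RPKM, a measure chosen after the values were seen and given with no test. Psmb8 over Psmb5 was 22.8, 18.5 and 22.5 at 14 days, against 10.4, 8.55, 2.70 and 3.35 in controls, with 4.17 to 14.3 at 6 days. Psmb9 over Psmb6 ran from 0.219 to 0.311 at 14 days, against 0.0723 to 0.182 in controls, with 0.109 to 0.224 at 6 days. Psmb10 over Psmb7 ran from 0.366 to 0.445 at 14 days, against 0.0742 to 0.28 in controls, with 0.135 to 0.366 at 6 days. In all 3 ratios the 14-day libraries lay above every control. The 6-day libraries overlapped them for Psmb9 over Psmb6 and came up to the lowest of them for Psmb10 over Psmb7. Psmb6 had 109 to 119 CPM in range B and 147 to 265 CPM in the other libraries. The standard subunits Psmb5 (4.15 to 5.68 CPM at 14 days, against 6 to 15.8 CPM in controls) and Psmb7 (38.3 to 48.7 CPM, against 55.2 to 88.6 CPM) did not overlap either, and were not called (log2 differences -1.29 and -0.66, adjusted p = 0.112 and 0.0709, edgeR). Psmb5 thus lay far below Psmb6 and Psmb7 in these libraries. Only uniquely aligning reads were counted, and the part of this in the level of Psmb5 was not tested. The size of the ratio over Psmb5 is therefore uncertain as a balance of subunits.

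**Figure D3:**
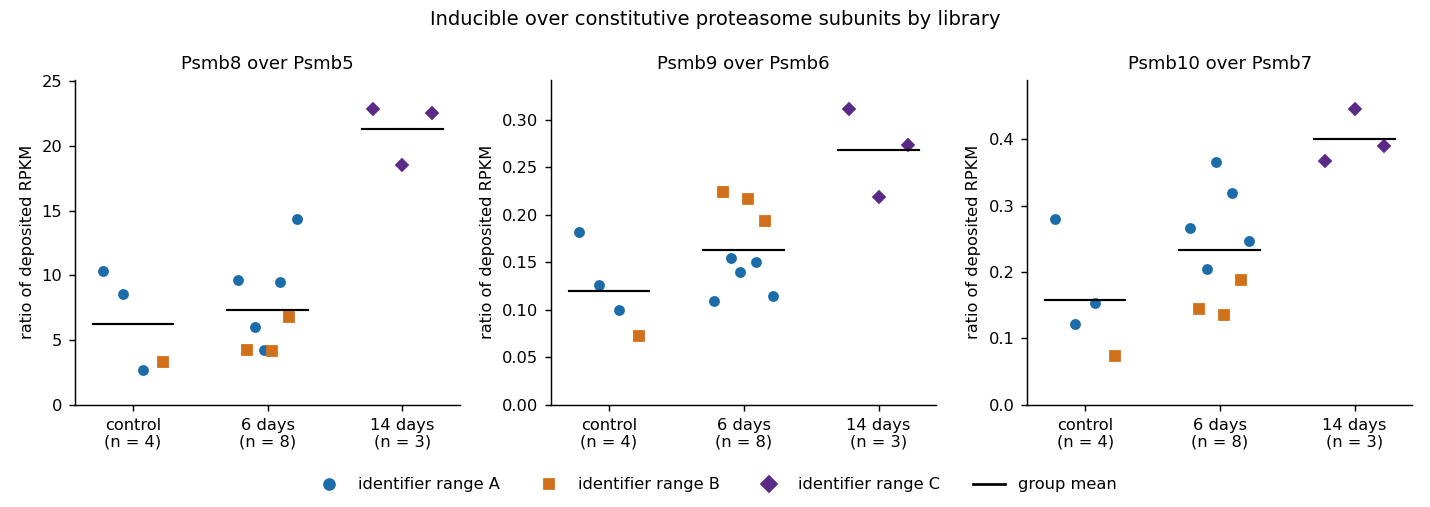
Ratio of deposited RPKM of each inducible proteasome subunit over the standard subunit it replaces, per library, with axes from 0, points by identifier range and a line at the group mean. All 3 libraries at 14 days lie above all 4 controls in each panel (18.5 to 22.8 against 2.70 to 10.4 for Psmb8 over Psmb5). The size of the ratio over Psmb5 is uncertain, since Psmb5 was far below the other standard subunits.

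Class II genes were low and varied widely between single controls. H2-Aa, H2-Ab1, H2-Eb1 and Cd74, the invariant chain, together made 14.9 to 119 CPM in controls, 20.2 to 30.8 CPM at 6 days and 35 to 106 CPM at 14 days. The sums at 14 days thus lay above every 6-day sum, and both groups fell inside the range of the controls. By edgeR over all libraries 0 of 8 tested class II members were called in each of the 3 comparisons. At an unadjusted p under 0.05 there was 1 at 14 days against control, with 23.3% of all genes. There were 5 at 6 days against control (1 of them higher), with 12.7%, and 3 at 14 against 6 days, with 23.1%. DESeq2 (14.8% of all genes called) and limma-voom (25% of all genes) called Cd74, Ciita and H2-Eb1 higher at 14 against 6 days. Limma-voom called H2-Eb1 lower at 6 days against control (4.41% of all genes called). The edgeR fit on the 14-day and 6-day libraries alone called Cd74 higher (4.08% of all genes called). H2-Ab1 (chr17:34263227-34269418) had 39.3, 16.4 and 18.1 CPM at 14 days, against 49, 10.1, 39.3 and 9.65 CPM in controls. Cd74 had 42.6, 11.3 and 18.2 CPM at 14 days, against 34.6, 3.98, 50.4 and 2.19 CPM in controls. In both genes controls 1 and 3 and 14-day replicate 1 were the 3 highest libraries, and controls 2 and 4 were at or near the bottom. The transactivator Ciita had 3.37, 1.40 and 1.69 CPM at 14 days, against 1.57, 0.416, 2.31 and 0.481 CPM in controls, and was highest in 14-day replicate 1 and control 3.

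The H2-DM genes encode the factor that exchanges peptides on class II molecules. H2-DMa had 8.56, 7.52 and 7.65 CPM at 14 days, against 6.97, 8.02, 9 and 3.26 CPM in controls, and H2-DMb1 had 13.2, 25.2 and 17.3 CPM, against 10.1, 13.8, 12.7 and 7.86 CPM. Log2 differences at 14 days against control were 0.22 ± 0.35 for H2-DMa and 0.74 ± 0.31 for H2-DMb1 (SE; lowest adjusted p = 0.159, edgeR). H2-DMb2 was lower in level, at 0.0684, 0.0466 and 3.20 CPM at 14 days, against 0.108, 0, 0.906 and 1.54 CPM in controls, with no call. Rfx5, a factor that binds class II promoters, lay at a log2 difference near 0, with 65.3, 62.2 and 66.6 CPM at 14 days, against 53.7, 95.7, 59 and 49.8 CPM in controls.

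Markers of cells that make class II were present at low levels. The 17 myeloid markers summed to 8.2 to 22.7 CPM in controls, 5.75 to 14.7 CPM at 6 days and 45.7 to 68.3 CPM at 14 days. Of 16 tested, 4 were called higher at 14 days against control, with 3.25% of all genes. At 14 against 6 days 7 were called higher, with 2.14% of all genes. C1qb, C1qc and Adgre1 were in both. Csf1r had 11.5, 8.85 and 15 CPM at 14 days, against 1.36, 0.624, 7.5 and 0 CPM in controls. Dendritic and Langerhans markers summed to 2.56 to 4.35 CPM at 14 days and 1.33 to 11.1 CPM in controls, with Clec9a at 0 in every library. Cd207, a Langerhans cell marker, and Cd3e, a T cell marker, were highest in control 3, at 4 and 1.53 CPM. The part of these cells in the class I and class II values was not tested. Myeloid and class II sums were 68.3 and 44.6 CPM in 14-day replicate 3 and 59.9 and 106 CPM in 14-day replicate 1. They were 22.7 and 119 CPM in control 3 and 13.9 and 95.9 CPM in control 1.

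Ctss, the protease that trims the invariant chain, was the only class II processing gene called, at 12.5, 8.03 and 13.5 CPM at 14 days, against a highest value of 1.07 CPM at 6 days. The log2 difference between 14 and 6 days was 5.26 ± 1.26 (SE; adjusted p = 0.0363, edgeR), and it was lost without 14-day replicate 1 or 3 or 6-day replicate 3, 5 or 7 (highest adjusted p = 0.219). The 3 libraries at 14 days also had the highest myeloid sums, and the part of myeloid cells in the Ctss values was not tested.

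**Figure D4:**
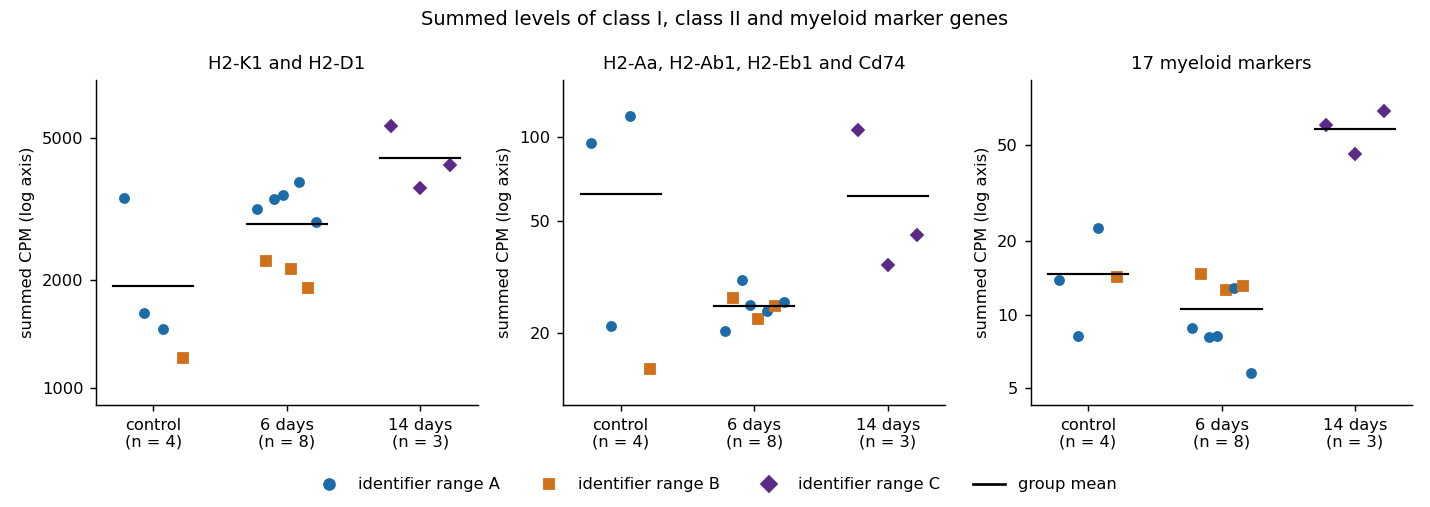
Summed CPM per library on log axes for H2-K1 with H2-D1, for the class II chains with Cd74, and for 17 myeloid markers, with points by identifier range and a line at the group mean. Class II sums of 106 CPM in 14-day replicate 1 stand beside 95.9 and 119 CPM in controls 1 and 3, while the myeloid sums of all 3 libraries at 14 days exceed those of every other library.

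After 6 days of vismodegib no member was called against control (0 of 46 by edgeR, where 1.26% of all genes were called). At an unadjusted p under 0.05 there were 11 of 46 members, 5 of them higher, with 12.7% of all genes. DESeq2 called 1 (4.52% of all genes) and limma-voom with sample weights 2, H2-D1 higher and H2-Eb1 lower (4.41% of all genes). The members' median log2 fold change was 0.24, against 0.03 over all genes. H2-K2, a heavy chain gene listed beside H2-K1 and named after its values were seen, came closest, with 5.81 to 12.9 CPM (median 8.03 CPM) at 6 days, against 4.17, 3.27, 4.03 and 4.18 CPM in controls. It was the only member whose groups did not overlap, where 2.69% of all genes did not (log2 difference 1.17 ± 0.28, SE; adjusted p = 0.0559, edgeR). Without 14-day replicate 1 or 6-day replicate 7 it was called (lowest adjusted p = 0.0411).

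The 6-day comparison was also made within each identifier range. Within range A, with 5 libraries at 6 days and 3 controls, 2 of the members were called (2.7% of all genes), H2-Q2 higher by 3.06 log2 (adjusted p = 0.0307, edgeR) and H2-Eb1 lower, at -2.54 log2 (adjusted p = 0.0182, edgeR). Within range B, with 3 libraries and 1 control, 4 members were called (0.906% of all genes), all higher: H2-Q7, H2-T22, Nlrc5 and Psmb9. The lone control there is assumed to vary like the other libraries. Nlrc5 differed by 1.83 log2 within range B (adjusted p = 0.0189, edgeR) and by -0.07 log2 within range A (adjusted p = 0.932, edgeR). A test of the difference between the ranges was not made.

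Cd74, H2-Aa and H2-Eb1 had the lowest log2 differences at 6 days against control after H2-M2 (-2.16 ± 0.91, SE), and none of the 4 was called by edgeR over all libraries (limma-voom with sample weights called H2-Eb1 lower). Cd74 lay between 3.35 and 10.1 CPM at 6 days (median 5.52 CPM), against 34.6, 3.98, 50.4 and 2.19 CPM in controls (log2 difference -1.80 ± 0.62, SE; adjusted p = 0.198, edgeR). H2-Aa lay between 1.16 and 3.47 CPM at 6 days (median 1.76 CPM), against 5.58, 0.654, 15.8 and 0.548 CPM in controls (log2 difference -1.54 ± 0.66, SE; adjusted p = 0.332, edgeR). For both genes the 6-day libraries fell inside the range of the controls, below controls 1 and 3 and above control 4. Within range A the log2 differences were -1.96 for Cd74 and -2.12 for H2-Aa, and within range B, where control 4 is the only control, they were 1.04 and 2.07. None of these 4 values was called (lowest adjusted p = 0.12, edgeR). H2-Eb1, the class II beta chain called lower within range A, lay between 0.771 and 5.03 CPM at 6 days, against 6.83, 6.39, 13.7 and 2.47 CPM in controls. Its log2 difference within range B was 0.79 (adjusted p = 0.312, edgeR).

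Between 14 and 6 days Tapbp alone was called by edgeR over all libraries, and groups did not overlap in 9 members, 8 of them higher at 14 days, where 11.7% of all genes did not overlap and 5.42% were higher without overlap. The 8 were Tapbp, Tap2, Tapbpl, Erap1, H2-M3, H2-Q8, Psmb9 and Cd74, and Psme1 was lower. At an unadjusted p under 0.05 there were 15 of 46 members, 14 of them higher, with 23.1% of all genes, and the median log2 fold change was 0.48, against -0.06 over all genes. Both comparisons with 14 days use the same 3 libraries of range C, and both comparisons with control use the same 4 controls. Without the range B libraries 8 members were called at 14 days against control, 7 of them higher (13% of all genes), with Tapbp at 1.18 log2 (adjusted p = 0.0114, edgeR) and H2-D1 at 1.12 log2 (adjusted p = 0.0378, edgeR). With range B as a covariate there were 13, of which 12 were higher (17% of all genes).

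Some H2- genes followed identifier range B or single libraries rather than groups. H2-Q4 (chr17:35379617-35384674) had 111 to 197 CPM in the 4 libraries of range B and 2.59 to 39.1 CPM in the other 11. In range B its values were 111 CPM in control 4 and 165 to 197 CPM at 6 days, so that its group means follow the share of range B libraries. Its log2 difference at 14 days against control was -0.95 ± 1.39 with all libraries and 1.65 with range B as a covariate, and neither was called (adjusted p = 0.73 and 0.111, edgeR).

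H2-Q10, H2-Q1, H2-DMb2 and the pseudogene H2-T-ps, a pattern chosen after the values were seen, had their 6 highest values in the same libraries: 6-day replicates 3, 4, 6 and 8, 14-day replicate 3 and control 4. H2-Q10 had 2.44 to 23.1 CPM in these and 0.0937 to 0.958 CPM in the other 9. H2-Q1 had 1.07 to 7.18 CPM in the 6 libraries and 0.0594 to 0.642 CPM elsewhere, and H2-T-ps 10.3 to 24.8 CPM and 2.91 to 8.41 CPM. In control 4, H2-Q10 was at 2.44 CPM, against 0.434, 0.178 and 0.0937 CPM in the other controls, and 14-day replicate 3 was at 10.8 CPM, against 0.349 and 0.466 CPM in the other 14-day libraries. The log2 differences of H2-Q10, 2.26 ± 1.52 at 14 days and 2.93 ± 1.41 at 6 days against control (SE), were the highest of any member and were not called (adjusted p = 0.397 and 0.414, edgeR). H2-Q2, next in order at 14 days, had 2.28, 2.75 and 8.84 CPM at 14 days, against 1.14, 0.683, 0.687 and 1.99 CPM in controls (log2 difference 2.03 ± 0.91, SE; adjusted p = 0.196, edgeR). It was likewise highest in 14-day replicate 3 and in 6-day replicates 3, 4, 6 and 8. H2-T23, which encodes Qa-1, had its lowest values in the same 6, at 19.5 to 148 CPM, and 152 to 281 CPM in the other 9. The 6 libraries come from all 3 groups and all 3 ranges. Outside range B, H2-Q4 had 19.2 to 39.1 CPM in 6-day replicates 3, 4, 6 and 8 and 14-day replicate 3. In the other libraries outside range B it had 2.59 to 8.6 CPM. H2-Q5, H2-T23 and H2-T22 were lowest in 6-day replicate 6, at 0.455, 19.5 and 11.1 CPM.

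H2-T10 and H2-T22, class I-like ligands of γδ T cells named after their values were seen, were set apart by range within the 6-day group. H2-T10 had 85.7 to 102 CPM in the 3 range B libraries at 6 days and 30.7 to 46.9 CPM in the 5 of range A. H2-T22 had 73.1 to 88.3 CPM in range B and 11.1 to 39.5 CPM in range A at 6 days. Control 4, of range B, did not share these levels, at 42.5 CPM for H2-T10 and 30.6 CPM for H2-T22. At 14 days H2-T10 had 118, 70 and 61.1 CPM, against 74.1, 45.5, 36.2 and 42.5 CPM in controls (adjusted p = 0.335, edgeR). MHC genes differ in sequence and copy number between mouse strains, and GRCm38 represents the C57BL/6J strain. The sources used here do not give the haplotypes of these mice, and their part in the values was not tested.

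**Figure D5:**
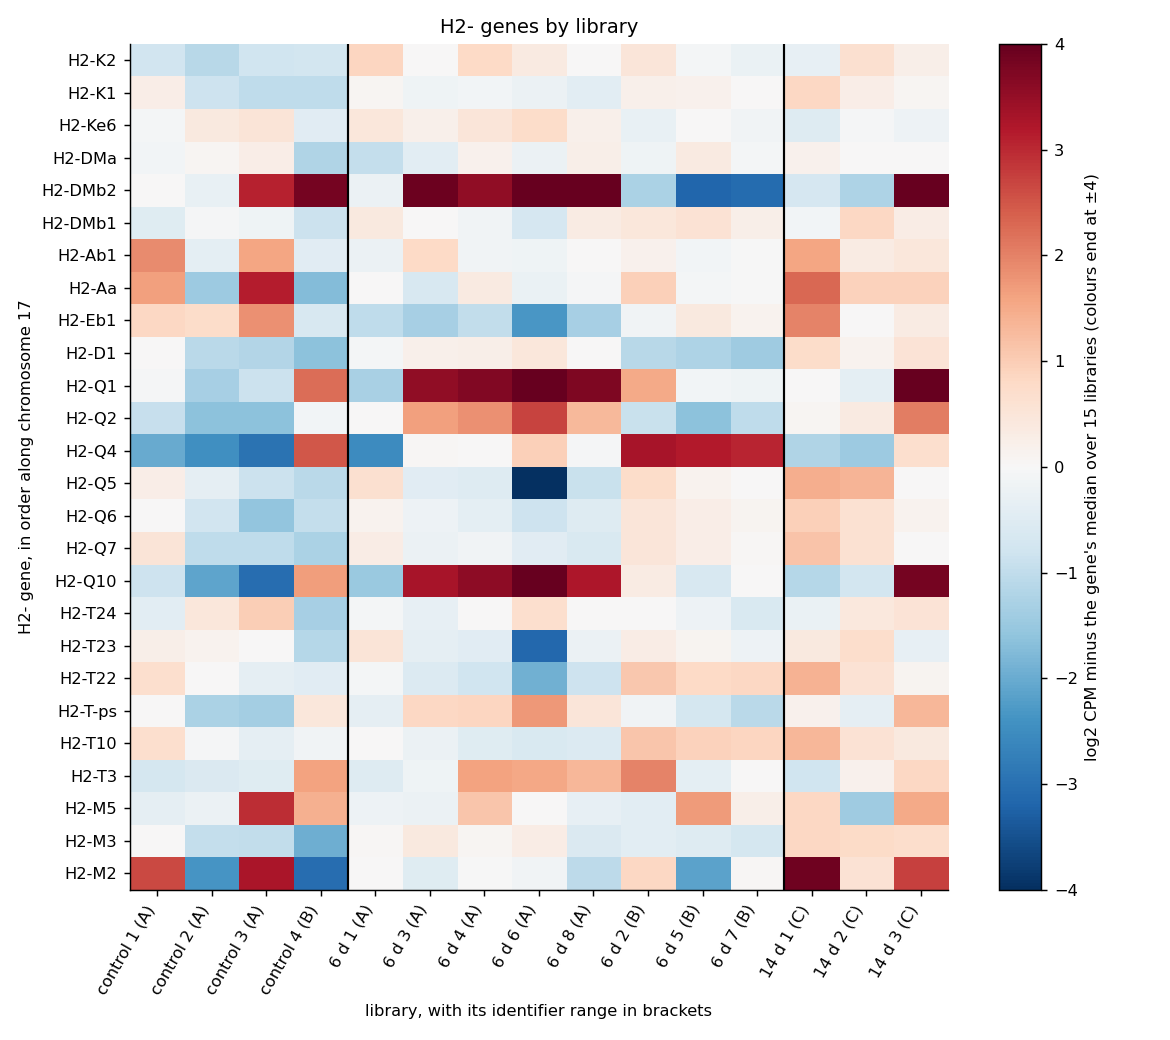
Tested H2- genes placed on chromosome 17 (rows, in their order along it) in each library (columns, by group and identifier range), coloured by log2 CPM minus the gene's median over the 15 libraries, with values under 3 counts set to that floor. H2-Q10, H2-Q1 and H2-DMb2 share 6 libraries with high values, and H2-Q4 is highest in the 4 libraries of range B.

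H2-Ke6 is in the list by its symbol alone, since it encodes a steroid dehydrogenase rather than an MHC molecule. It had 60.3, 83.7 and 74.9 CPM at 14 days, against 80.6, 113, 123 and 62.7 CPM in controls (adjusted p = 0.425, edgeR). H2-M2 had the highest log2 difference of any member between 14 and 6 days, at 3.09 ± 0.96 (SE; adjusted p = 0.0816, edgeR), from 6.81, 0.691 and 3.03 CPM at 14 days and 0.104 to 0.822 CPM at 6 days. Its controls had 2.87, 0.0297, 4.44 and 0.0559 CPM, high in the same controls 1 and 3 as Cd74. H2-T3 and H2-T18 had nearly the same counts and stayed at or below 0.518 CPM, and H2-M5 at or below 0.812 CPM.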

How the data were processed

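PolyA RNA of sorted tumour cells was sequenced in 15 libraries. Per the file headers, the authors deposited counts of reads aligning uniquely to each gene model and RPKM values divided by gene length and a size factor. The submitters' processing notes list GSNAP and GRCm38. The sources used here do not give versions, annotation or strand handling. Overlapping and antisense genes therefore cannot be separated. H2-Q7 and H2-Q9 had identical counts, so the same reads can stand under more than one near-identical H2- gene. Of 36528 Entrez identifiers 31049 matched a RefSeq table of GRCm38.p6, which gave symbols and coordinates. It holds 68 genes named by the rule, 59 of them matched in the files.

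Groups follow the treatment label, and replicate numbers follow accession order. Total counts of 27336935 to 256569828 set a floor of 3 counts at no more than 0.105 CPM. This floor covers counting error only, since PCR copies are not marked. Counts were fitted with the quasi-likelihood F test of edgeR 4.0.16 (R 4.3.3), with TMM factors and genes kept by filterByExpr, over all 15 libraries, giving 18751 genes, 12 residual degrees of freedom and a common biological coefficient of variation of 0.579. Calls use a Benjamini-Hochberg adjusted p under 0.05 over all genes. RPKM values were used for levels per length and for ratios, with no test.

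The members and lists were chosen with earlier results of these data known. Named genes are members called in any comparison, 25 fixed by symbol, the 3 highest and 3 lowest log2 fold changes in each comparison, called genes of 7 neighbouring pathway lists, and Irf1, Rfx5, Ctss and Psmb5 to Psmb7. Others are said to be named after their values were seen or appear as markers. Alternatives were RLE factors, DESeq2 1.42.0, limma-voom 3.58.1 with sample weights, 2 other filters, fits of 2 groups alone, identifier ranges as a covariate or split, and each library left out in turn, 25 settings in all. The scripts were tested on simulated data. Python 3.11.15 with numpy 2.4.6, pandas 2.3.3 and matplotlib 3.10.9 did the rest. An item named by this rule is not reported here.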

Additional observations from a re-analysis of the deposited data

Results flagged for a closer look

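Of 92 groups of 4 or 8 libraries examined, over the 46 tested members, 18 held a library far from the rest of its group by Dixon's criterion. About 1 of 20 independent, normally distributed groups would meet this criterion. That rate cannot be applied here, since CPM was not log-transformed, 17 of the 18 values were high and the same libraries recur. A rate over all genes is not given. In control 1 the high values were B2m (1569 CPM, next control 524 CPM), H2-K1 (1361 CPM, next 646 CPM), Calr (534 CPM, next 373 CPM), Psmb8 (185 CPM, next 78.3 CPM), H2-Q7 (94.9 CPM, next 32.8 CPM) and Psmb10 (37 CPM, next 12.6 CPM). Control 4, the lone control of range B, stood apart in H2-Q4 (111 CPM, next 4.96 CPM), H2-Q10 (2.44 CPM, next 0.434 CPM), H2-Q1 (1.07 CPM, next 0.217 CPM) and H2-T3 and H2-T18 (both 0.403 CPM, with 0 in the other controls). Control 2 was low in H2-K2 (3.27 CPM, next 4.03 CPM).

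Among the 6-day libraries, replicate 6 was high in H2-Q10 (23.1 CPM, next 9.08 CPM), H2-T-ps (24.8 CPM, next 13.6 CPM), H2-T24 (10.9 CPM, next 7.06 CPM), H2-Q1 (7.18 CPM, next 2.99 CPM) and Ciita (1.61 CPM, next 0.83 CPM), and replicate 3 in H2-Ab1 (22.8 CPM, next 15 CPM). Replicate 6 has the lowest total count of all libraries, at 27336935. Leaving out control 1 raised the members called at 14 days against control to 17, and leaving out control 4 or 6-day replicate 6 gave 5 and 6.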

How the results depend on the processing

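With 3 libraries at 14 days and 4 controls, calls of members near the threshold moved with the setting. At 6 days against control, where 0 members and 236 genes were called, DESeq2 called 1 member and 846 genes, limma-voom with sample weights 2 and 826, range B as a covariate 1 and 866, leaving out range B 2 and 465, range A alone 2 and 468, and range B alone 4 members. At 14 days against control (7 members, 1238 genes), DESeq2 called 11 and 2752, limma-voom 18 and 4205, range B as a covariate 13 and 3196, the fit of those groups alone 0 and 374, and leaving out range B gave 2330 genes. For 14 against 6 days (1 member, 730 genes), DESeq2 called 8 and 2609, limma-voom 16 and 4693, the fit of those groups alone 6 and 818, range B as a covariate 5 and 2036, leaving out range B 8 and 1322, and no filter 460 genes. With each library left out in turn, calls ran from 0 to 1 members and 69 to 308 genes at 6 days, from 0 to 17 and 376 to 1438 at 14 days, and from 0 to 5 and 3 to 1138 between 14 and 6 days. For 14 against 6 days, 5 members were called without control 4, 4 without control 1, and 0 without 14-day replicate 1 or 3 or 6-day replicate 2, 5, 6 or 7. The cause of these changes was not tested.

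Psmb9 at 6 days, at -0.02 log2 in all libraries, was called higher at 1.57 log2 (adjusted p = 0.0414, edgeR) in range B alone. Of the called genes' values under the alternatives 271 kept and 97 lost their call, all with the same direction, and values that were not called stayed so in 2843 cases and passed the threshold in the same direction in 108. No paired analysis was possible because the labels give no replicate numbers.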
